A study of Bos taurus with 16 samples.

Results

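The zinc-finger genes examined here are all entries of a bovine gene count table whose symbol begins with ZNF, ZSCAN or ZFP followed directly by a digit. Of 36824 entries in the table, 61 carried such a name, with 51 named ZNF, 5 ZSCAN and 5 ZFP. A member was reported where it reached at least 1 CPM (counts scaled to 1 M counts, or 1 mega-count, per library) in 4 or more libraries, which 51 of the 61 did. Cumulus cells, which surround the oocyte, and granulosa cells, which line the follicle wall, came from ovarian follicles of cattle (Bos taurus). A follicle was ipsilateral where its ovary bore the corpus luteum, the gland that forms after ovulation, and contralateral where the other ovary did. RNA-seq gave 16 libraries, with 4 pools from 3 animals each for each cell type on each side. The labels name no treatment other than this position. Breed, age and stage of the cycle are not stated, and nothing says whether pools of different groups shared animals, so p-values measure the spread between pools.

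C2H2 zinc-finger proteins bind DNA through tandem fingers, each of which holds a zinc ion between a pair of cysteines and a pair of histidines. Many carry a KRAB domain, which recruits the co-repressor TRIM28 and the histone methyltransferase SETDB1 and so silences chromatin, often at transposable elements. Others carry a SCAN domain, through which they pair with each other, and a further group has neither domain. Their genes often lie in clusters of tandem copies. A member described in the ovary is ZNF461, also known as a gonadotropin-inducible ovary transcription repressor.

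The set is a sample of the family rather than all of it. The RefSeq annotation of cattle (assembly ARS-UCD2.0, used for names and neighbours only) holds 338 symbols of this form. A further 27607 entries of the count table carry an Ensembl identifier without a symbol, so zinc-finger genes among them were not analysed here. RefSeq held 57 of the 61 members, and the exceptions were ZNF529, ZNF594, ZNF606 and ZNF883. ZNF845 is listed there as ZNF761. No member with at least 160 counts in total had another entry in the table with near-identical counts (within 2% or 2 counts in every library). Members with fewer counts were not checked.

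Library totals ran from 10.1 to 21.9 M counts, so a count of 0 allowed up to 3 counts, or 0.137 to 0.298 CPM of the library total, which covers counting error only. Markers of cumulus (0 of 6) and granulosa cells (0 of 9) were not found by name, so the labelled cell types could not be checked with them. The 2 of 11 oocyte markers found were high in contralateral cumulus library 4, with BCL2L10 at 110 and H1FOO at 91.3 CPM, and BCL2L10 lay between 0 and 9.6 CPM in the other libraries. PF4, a platelet gene and 1 of 5 leukocyte markers found, lay at 0 to 0.242 CPM in cumulus and 0.45 to 3.86 CPM in granulosa libraries. Of 6 epithelial markers 3 were found, and contralateral granulosa library 3 had CFAP44 at 31.5, WDR63 at 19.3 and MUC16 at 24.3 CPM, while ipsilateral granulosa library 3 had MUC16 at 44.4 CPM. Theca, erythrocyte, endothelial and fibroblast markers were not found by name.

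Most members were present throughout. At the 1 CPM level, 40 of the 51 were present in all 16 libraries, and the other 11 in fewer. The mean level over libraries, given from here on as CPM after TMM scaling, lay between 0.634 and 87.4 CPM with a median of 8.91 CPM. ZSCAN21, ZNF543 and ZNF484 had the highest mean counts and ZNF488, ZNF213 and ZNF597 the lowest. These values are not divided by transcript length, so they order counts and not molecules. ZNF213 and ZNF488 reached 1 CPM in 5 libraries and ZNF469 in 6, whereas ZNF580 and ZNF594 did so in 3 and fell short of the rule.

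Some members passed the level rule mainly through 1 cell type. ZNF469, ZNF213 and ZNF597 reached 1 CPM in fewer than 4 cumulus libraries, namely in 0, 3 and 3. ZNF488, ZNF213, ZNF232, ZNF446 and ZNF891 did so in fewer than 4 granulosa libraries, with 1, 2, 3, 2 and 2. For members that passed in this way a difference between cell types was favoured by the rule itself. The next paragraphs therefore also give counts of calls for the 40 members present in every library, or name the members concerned.

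Between the cell types, more members were higher in cumulus than in granulosa cells. With edgeR's quasi-likelihood test on all 16 libraries and Benjamini-Hochberg adjustment over all entries, 23 of 51 members were called higher in cumulus cells, where 29.9% of all entries tested were. In the other direction, 4 of 51 were called higher in granulosa cells, against 30.3% of all entries, and 24 were not called. In either direction, 60.2% of all entries were called. The median log2 fold change (cumulus minus granulosa) was 0.46 over the members and 0.03 over all entries, and 38 members lay above 0 and 13 below, where 51.6% of all entries lay above 0. Among the 40 members present in every library, 20 were called towards cumulus and 3 towards granulosa cells, with a median of 0.42. Without the level rule, 54 of the 61 could be tested, and 25 were called towards cumulus and 4 towards granulosa cells.

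The differences were mostly moderate in size. At least 1.5-fold differences were called for 16 members towards cumulus cells, against 23.0% of all entries, and for 3 towards granulosa cells, against 21.5%. In 8 members every cumulus library lay above every granulosa library, which held for 13.1% of all entries. In 3 members every cumulus library lay below every granulosa library, against 14.9%. The libraries of the cell types overlapped in the other 40. ZNF446 and ZNF232 among the 8, and ZNF469 among the 3, met the level rule mainly through 1 cell type, so it favoured their direction. The same limit holds for the counts at 1.5-fold, where ZNF891 is a further such member. In bulk RNA, fewer cells of a type and less RNA per cell cannot be told apart.

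**Figure D1:**
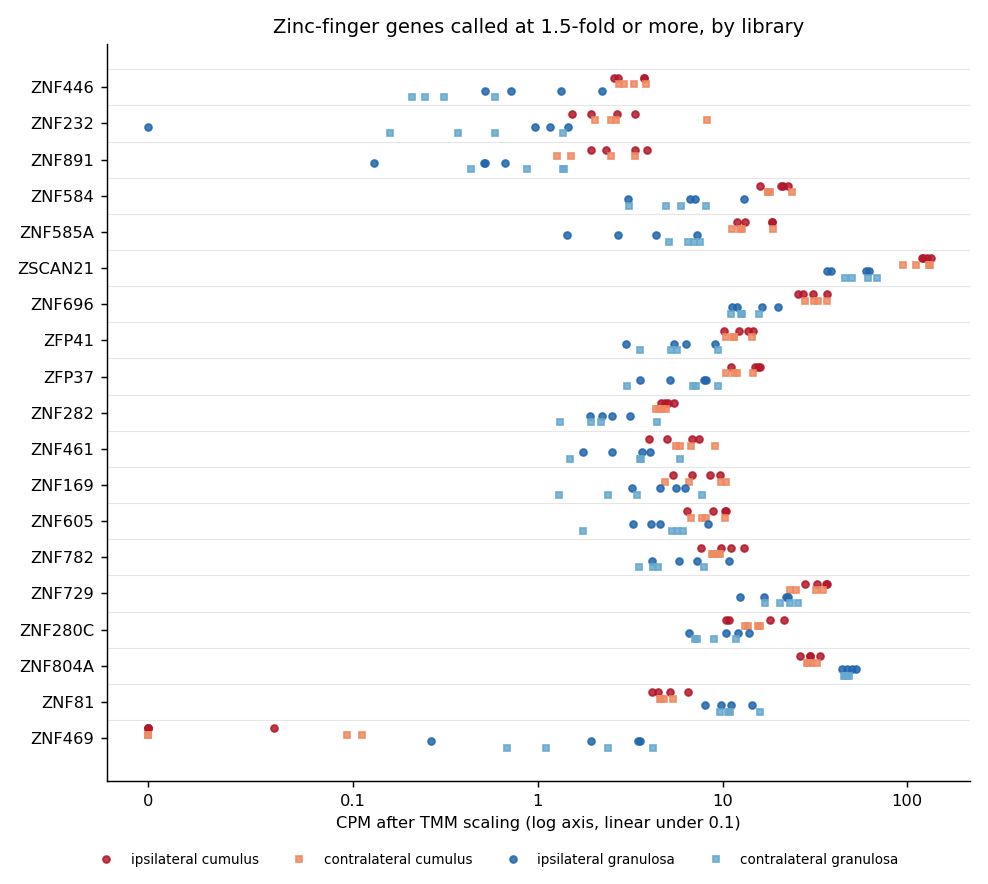
Levels by library of the 19 members called between the cell types at 1.5-fold or more. Each point is a library, in CPM after TMM scaling on a log axis that is linear under 0.1, with ipsilateral and contralateral cumulus in red and orange and granulosa in dark and light blue. The cumulus points lie mostly to the right for 16 members, and wholly so in 8 of them. They lie wholly to the left for ZNF804A, ZNF81 and ZNF469.

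**Figure D2:**
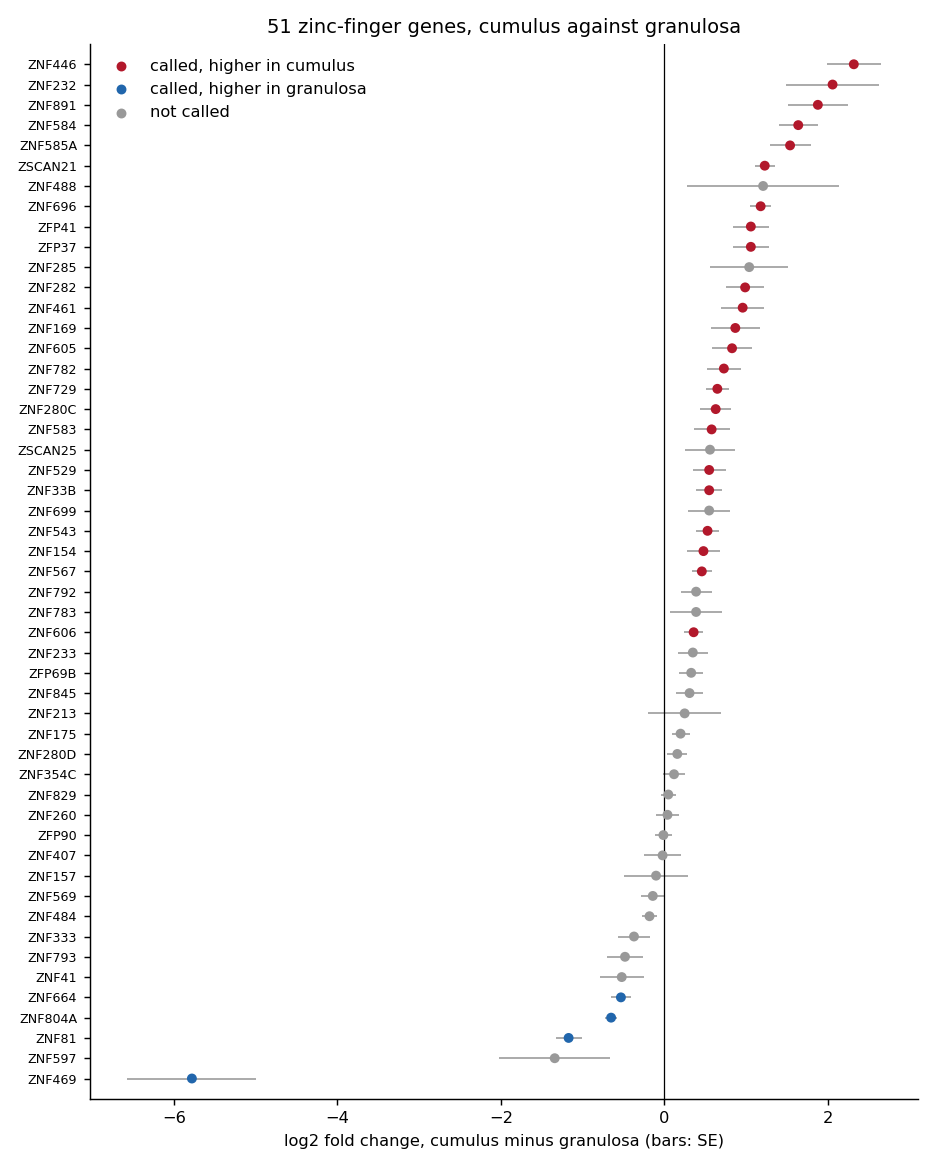
Difference between cumulus and granulosa cells for each reported member. Points give the log2 fold change (cumulus minus granulosa), bars its standard error, red and blue the members called at an adjusted p under 0.05, and grey the others. Of the called members 23 lie above 0 and 4 below.

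The domain classes that follow were put together after the values were seen, and their counts are descriptions beside the 29.9% and 30.3% of all entries called towards cumulus and granulosa cells. Among 5 reported SCAN-domain genes, ZSCAN21 was the one present in every library. ZSCAN21, ZNF446 and ZNF232 were called higher in cumulus cells, and ZSCAN25 and ZNF213 were not called. ZNF446 and ZNF232 met the level rule through their cumulus libraries, so their direction was favoured by it. ZSCAN21, known as a regulator of the alpha-synuclein gene, ranged from 94.6 to 135 CPM in cumulus libraries (median 124) and from 36.6 to 68.4 CPM in granulosa libraries (median 55). Its cumulus and granulosa libraries were far apart, and the mean was 122 ± 13.7 against 52.9 ± 11.6 CPM (SD, n = 8 each). Its log2 fold change was 1.23 ± 0.12 (SE), or 2.34-fold, with an edgeR adjusted p of 2.37e-07.

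ZNF446, which carries both a SCAN and a KRAB domain, lay at 2.57 to 3.83 CPM in cumulus libraries (median 3.11) and at 0.209 to 2.22 CPM in granulosa libraries (median 0.548). All cumulus libraries were above all granulosa libraries, with a log2 fold change of 2.32 ± 0.33 (4.99-fold, edgeR adjusted p 1.41e-05). Among the granulosa libraries the ipsilateral ones held 0.714, 1.33, 0.514 and 2.22 CPM and the contralateral ones 0.209, 0.583, 0.244 and 0.309 CPM. The fold was accordingly 2.69 when the cell types were compared in ipsilateral libraries and 9.35 in contralateral libraries. The test of that difference is given with the side effects.

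ZNF232, a SCAN gene, had 2.68, 3.37, 1.94 and 1.53 CPM in the ipsilateral and 2.5, 2.04, 2.66 and 8.28 CPM in the contralateral cumulus libraries. Its granulosa libraries lay between 0 and 1.46 CPM with a median of 0.775. No granulosa library reached the lowest cumulus library, and the log2 fold change was 2.06 ± 0.57 (4.18-fold, edgeR adjusted p 0.00501). Its highest library, contralateral cumulus 4, was the one with the highest oocyte markers, and without it the difference was 3.28-fold and was still called. In the ipsilateral libraries alone it was 2.67-fold with an edgeR adjusted p of 0.163.

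KRAB genes formed the largest class, with 35 of the 51 reported members. Genes with a SCAN domain, such as ZNF446 with both domains, were counted with the SCAN genes and not here. Of these, 17 were called higher in cumulus cells, 1 in granulosa cells and 17 were not called, where all entries had 29.9% and 30.3%. Among the 31 KRAB genes present in every library, 16 were called towards cumulus and 1 towards granulosa cells, with a median log2 fold change of 0.46. ZNF891 lay at 1.27 to 3.92 CPM in cumulus libraries (median 2.41) and 0.129 to 1.38 CPM in granulosa libraries (median 0.591). The ranges of ZNF891 overlapped slightly, and its log2 fold change was 1.88 ± 0.37 (3.69-fold, edgeR adjusted p 0.000346). On the ipsilateral side alone the difference of ZNF891 was 6.29-fold, and on the contralateral side it was 2.18-fold and not called (edgeR adjusted p 0.0954). ZNF891 met the level rule through its cumulus libraries.

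ZNF584 and ZNF585A, both KRAB genes, did not overlap between the cell types. ZNF584 lay at 15.9 to 23.9 CPM in cumulus (median 19.4) and 3.09 to 13 CPM in granulosa libraries (median 6.29), a log2 fold change of 1.64 ± 0.24 (3.11-fold, edgeR adjusted p 2.05e-05). ZNF585A lay at 11.3 to 18.7 CPM in cumulus (median 12.9) and 1.43 to 7.55 CPM in granulosa libraries (median 5.83), a log2 fold change of 1.54 ± 0.25 (2.9-fold, edgeR adjusted p 6.38e-05). In both genes the granulosa libraries varied more than the cumulus libraries relative to their level.

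ZFP37, another KRAB gene, lay at 10.5 to 15.9 CPM in cumulus and 3.02 to 9.43 CPM in granulosa libraries, with no overlap and a 2.08-fold difference (edgeR adjusted p 0.000527). ZNF282, known as HUB1 and first described as a factor binding a retroviral repeat, lay in a narrow range of 4.37 to 5.44 CPM in cumulus and at 1.32 to 4.39 CPM in granulosa libraries (1.98-fold, edgeR adjusted p 0.00123). The highest granulosa library of ZNF282 only just reached the lowest cumulus library. ZNF461, the ovary transcription repressor named above, lay at 4.02 to 9.07 CPM in cumulus and 1.49 to 5.85 CPM in granulosa libraries, a log2 fold change of 0.96 ± 0.26 (1.94-fold, edgeR adjusted p 0.00516).

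The other KRAB genes called at least 1.5-fold higher in cumulus cells overlapped between the cell types. They were ZNF169 (1.83-fold), ZNF605 (1.78-fold), ZNF782 (1.66-fold) and ZNF729 (1.57-fold), with edgeR adjusted p-values between 0.000823 for ZNF729 and 0.0209 for ZNF169. The call of ZNF169 was lost when contralateral cumulus library 4 and contralateral granulosa library 3 were left out together. In ipsilateral libraries alone ZNF169, ZNF605 and ZNF782 were not called (edgeR adjusted p 0.0971, 0.0548 and 0.155). In contralateral libraries alone ZNF169, ZNF605 and ZNF729 were not called (edgeR adjusted p 0.0913, 0.0819 and 0.0841). ZNF583, ZNF529, ZNF33B, ZNF543, ZNF154, ZNF567 and ZNF606 were called higher in cumulus cells by less than 1.5-fold. Of these, ZNF154, a gene studied for its methylation in tumours, ZNF529 and ZNF583 lost the call in 11, 6 and 7 of 16 fits that each left out 1 library.

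Of 4 members not assigned to any class, ZNF696 and ZFP41 were called higher in cumulus cells, and ZNF597 and ZNF488 were not called. ZNF696 lay at 25.7 to 36.8 CPM in cumulus (median 31.1) and 11.1 to 19.9 CPM in granulosa libraries (median 12.7), without overlap, a log2 fold change of 1.18 ± 0.13 (2.26-fold, edgeR adjusted p 1.46e-06). ZFP41 lay at 10.2 to 14.6 CPM in cumulus and 2.99 to 9.41 CPM in granulosa libraries, also without overlap (2.09-fold, edgeR adjusted p 0.00062). In RefSeq ZFP41 overlaps GLI4, and the library kits do not mark strand, so reads of that pair cannot be assigned with certainty. Of the 27 called members, 11 overlap another annotated gene, as do 19 of the 51 reported members. The called members ZNF529 and ZNF606 are not in RefSeq, so their overlap is unknown. The share over all entries was not computed.

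Of the 7 members classed as carrying neither a KRAB nor a SCAN domain, 3 were called higher in granulosa cells and 1, ZNF280C, higher in cumulus cells. Among the 6 of them present in every library it was 2 and 1. The 4 members not assigned to a class, 2 of them called higher in cumulus cells, are not among these 7. Their domains were not determined here, so the counts of this class depend on where they are placed. ZNF469, mutated in brittle cornea syndrome, held 0 counts in 5 of 8 cumulus libraries and at most 0.112 CPM in the others. Its ipsilateral granulosa libraries had 3.57, 0.265, 1.93 and 3.47 CPM and its contralateral granulosa libraries 4.18, 1.11, 2.39 and 0.681 CPM. In all, 5 counts of ZNF469 in cumulus libraries stood against 285 in granulosa libraries, a depth-scaled ratio of 54.6 with a 95% exact binomial interval of 23.1 to 169, which covers counting error only.

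For ZNF469 the fitted log2 fold change was -5.78 ± 0.79 (54.9-fold, edgeR adjusted p 9.38e-06), and the size rests on very few cumulus counts. Without ipsilateral cumulus library 4 the fitted value was 100-fold. The gene reached 1 CPM in no cumulus library, so it met the level rule through granulosa libraries alone. PF4, whose levels are given above, was likewise higher in granulosa libraries, and its part in the result was not tested.

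ZNF804A, a gene associated with schizophrenia, lay at 26.1 to 33.9 CPM in cumulus libraries (median 29.7) and at 44.2 to 52.8 CPM in granulosa libraries (median 47). The cell types did not overlap and replicates were close together, with a log2 fold change of -0.65 ± 0.07 (1.57-fold higher in granulosa cells, edgeR adjusted p 1.5e-06). ZNF664 lay at 13.9 to 21.4 CPM in cumulus and 21.4 to 35.1 CPM in granulosa libraries (1.45-fold higher in granulosa cells, edgeR adjusted p 0.00101). The KRAB gene called in this direction was ZNF81, a gene on the human X chromosome examined in intellectual disability. It lay at 4.15 to 6.53 CPM in cumulus (median 4.72) and 8.05 to 15.9 CPM in granulosa libraries (median 10.8), a log2 fold change of -1.17 ± 0.16 (2.25-fold, edgeR adjusted p 1.39e-05).

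ZNF280C, whose protein resembles fly suppressor of hairy wing, lay at 10.5 to 21.6 CPM in cumulus and 6.56 to 13.9 CPM in granulosa libraries (1.55-fold, edgeR adjusted p 0.00821). Its close relative ZNF280D was not called, with a log2 fold change of 0.16 ± 0.12 (edgeR adjusted p 0.255). ZNF407 and ZNF260, also in this class, had log2 fold changes of -0.02 ± 0.23 and 0.04 ± 0.14.

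Several members had nearly equal levels in both cell types. ZFP90, whose protein binds the neuronal repressor REST, lay at 30.9 to 42 CPM in cumulus and 29 to 45.4 CPM in granulosa libraries, a log2 fold change of -0.01 ± 0.10. ZNF829 had a log2 fold change of 0.05 ± 0.09. Larger but uncertain values belonged to low members: ZNF488 had 1.21 ± 0.93 (edgeR adjusted p 0.27), ZNF597, imprinted in human, -1.34 ± 0.68 (adjusted p 0.1) and ZNF285 1.04 ± 0.48 (adjusted p 0.0731). Leaving out 1 library moved these values. ZNF488 was 3.54 and called without contralateral granulosa library 4 (edgeR adjusted p 0.0203, range over 24 alternatives 0.0203 to 0.481). ZNF597 was -1.56 and called without ipsilateral granulosa library 4 (0.0172, range 0.0172 to 0.615). ZNF285 was 1.24 without ipsilateral cumulus library 1 and 1.47 without ipsilateral granulosa library 4, and called in both.

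Counts summed over the 51 members gave 784 to 929 CPM in cumulus and 618 to 759 CPM in granulosa libraries, without overlap. The mean of the sum was 877 ± 53.3 CPM over the cumulus libraries and 695 ± 48.5 CPM over the granulosa libraries (SD, n = 8 each). ZSCAN21, ZNF543 and ZNF484 made up 25.3 to 30.5% of it in cumulus and 20.3 to 31.1% in granulosa libraries, and without them the sums were 586 to 665 and 492 to 572 CPM. ZNF543, a KRAB gene, lay at 55 to 87.2 CPM in cumulus and 28.4 to 75.9 CPM in granulosa libraries (1.44-fold, edgeR adjusted p 0.00313). ZNF484, also a KRAB gene, was not called (log2 fold change -0.18 ± 0.09, edgeR adjusted p 0.109).

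Extreme values of the members were unevenly spread over libraries, and the same counts were not made over all entries. Whether other genes share this spread was not tested. The highest level of a member was found in a cumulus library for 36 members and in a granulosa library for 15, and the lowest in a cumulus library for 14 and a granulosa library for 37. ZNF488, at 0 in libraries of both cell types, is counted under cumulus here. Ipsilateral cumulus library 1 held the highest value of 10 members. Ipsilateral granulosa library 1 held the lowest value of 11 members and contralateral granulosa library 3 of 7. The latter had the highest CFAP44 and WDR63, and MUC16 at 24.3 CPM. MUC16 was also at 44.4 CPM in ipsilateral granulosa library 3 and at 10 CPM in ipsilateral granulosa library 1. With contralateral granulosa library 3 and contralateral cumulus library 4 left out, 21 members were called towards cumulus and 5 towards granulosa cells. Of all 18210 entries tested in that fit, 5232 and 5372 were called in the same order.

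The ipsilateral and contralateral libraries give estimates of the cell type difference that share no library. Whether their pools share animals is not stated, so these estimates may not be independent. Of 49 members tested on both sides, 16 (32.7%) were called higher in cumulus cells in the ipsilateral libraries, where 20.9% of all entries were. In the contralateral libraries 12 (24.5%) were, against 25.1% of all entries, and 7 (14.3%) were called on both sides, against 16.9%. The last pair of shares lies near or under that of all entries. Towards granulosa cells 2 members were called in ipsilateral libraries (23.7% of all entries) and 4 in contralateral libraries (23.4%). The 7 members called on both sides were ZFP37, ZNF696, ZFP41, ZNF585A, ZNF584, ZNF446 and ZSCAN21. ZNF804A and ZNF81 were called higher in granulosa cells on both sides (18.7% of all entries), and no member was called in opposite directions. The sign was the same for 38 of 49 members (77.6%), beside 84.8% of all 16205 entries tested on both sides.

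**Figure D3:**
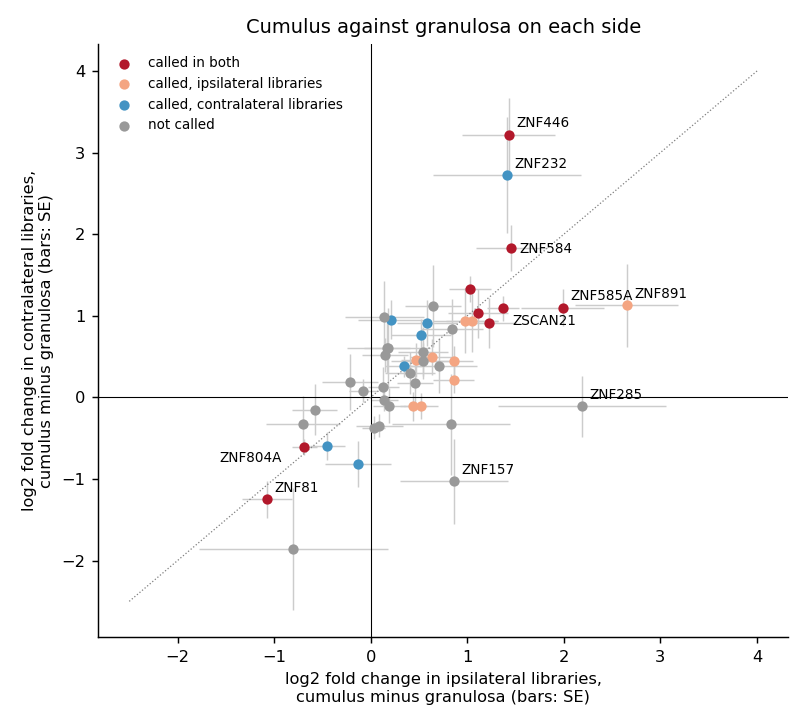
Cell type difference of 49 members in ipsilateral and in contralateral libraries. The axes give the log2 fold change (cumulus minus granulosa) from the ipsilateral (x) and the contralateral (y) libraries, which share no samples, with standard errors as bars and colours for the calls. Most members, 38 of 49, have the same sign on both axes.

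Replicate spread was larger in granulosa than in cumulus libraries. Over the 38 members with a mean of 5 to 120 CPM, a range chosen after the values were seen, the median coefficient of variation was 15.3% in ipsilateral and 15.6% in contralateral cumulus groups. It was 27.2% in ipsilateral and 23.4% in contralateral granulosa groups. For all 10174 entries in that range the medians were 14.4, 15.9, 21.1 and 17.7% in the same order, at a higher median level (25.4 CPM, against 12.7 CPM for the members).

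Position relative to the corpus luteum, which the study set out to compare, gave no called member in either cell type. In cumulus cells, 50 members were tested (ZNF469 fell under the count filter) and 0 were called by edgeR, limma-voom or DESeq2. The edgeR background was 0.0% of 16323 entries. DESeq2 called 121 entries, 23 higher and 98 lower in ipsilateral libraries, out of 27631 with any count. Such totals for DESeq2 include entries that it can leave without an adjusted p. At an unadjusted p under 0.05, 2 members passed, 1 in each direction, beside 4.2% of all entries towards the ipsilateral and 6.78% towards the contralateral side. The median log2 fold change (ipsilateral minus contralateral) was 0.09, with 33 members above 0 and 17 below (48.2% of all entries were above 0), and standard errors ran from 0.11 to 0.85 with a median of 0.20. The lowest adjusted p of any member was 0.437.

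ZNF543 had the smallest p in cumulus cells. Its ipsilateral libraries held 76.7, 82.9, 87.2 and 71.8 CPM and its contralateral libraries 69.8, 73.9, 55 and 63 CPM, so the sides overlapped, and the log2 fold change was 0.27 ± 0.11 (edgeR adjusted p 0.437). ZFP69B, a KRAB gene, held 8.87, 5.74, 8.04 and 9.06 CPM on the ipsilateral and 12.1, 8.73, 12.2 and 11.2 CPM on the contralateral side. The ipsilateral values of ZFP69B lay mostly lower, with overlap at 1 contralateral library (-0.49 ± 0.20, edgeR adjusted p 0.439).

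ZNF280D was the member whose cumulus sides did not overlap. It held 33.7, 35.3, 37.3 and 33.6 CPM in ipsilateral and 31.3, 33.6, 26.9 and 25.4 CPM in contralateral libraries, where the nearest values of the sides are equal as rounded here. The log2 fold change was 0.24 ± 0.12 (edgeR adjusted p 0.483), and 2.77% of all entries had every ipsilateral above every contralateral library. Of the other members with the smallest p, ZNF569 had 0.33 ± 0.17, ZNF583 -0.38 ± 0.20 and ZNF597 1.20 ± 0.69.

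In granulosa cells 49 members were tested, without ZNF446 and ZNF488, and 0 were called by edgeR, limma-voom or DESeq2. The edgeR background was 0.0% of 16411 entries, and DESeq2 called 1 of 27033 entries with any count. At an unadjusted p under 0.05, 2 members passed, both lower on the ipsilateral side, beside 2.13% of all entries in that direction and 1.4% in the other. The median log2 fold change was -0.03, with 22 members above 0 and 27 below, or 25 and 24 when scaled by library totals (51.0% of all entries were above 0), and standard errors ran from 0.12 to 1.02 with a median of 0.31. Every edgeR adjusted p of a member was 1.

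The 2 members were ZNF175 and ZNF285, and in both every ipsilateral granulosa library lay below every contralateral one, which held for 0.999% of all entries. ZNF175, a KRAB gene known as OTK18 that represses HIV transcription in macrophages, held 16.6, 17.1, 17.5 and 21.6 CPM in ipsilateral and 26, 26.2, 27.7 and 28.9 CPM in contralateral libraries. The contralateral values were close together and the log2 fold change was -0.60 ± 0.15. ZNF285, also a KRAB gene, held 0.26, 0.133, 0.129 and 0.739 CPM in ipsilateral and 1.78, 1.75, 1.61 and 1.92 CPM in contralateral libraries, a log2 fold change of -2.44 ± 0.64.

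The ipsilateral values of ZNF285 lie near the level of a few counts. Without ipsilateral granulosa library 4, its highest ipsilateral library, the log2 fold change was -3.30. Neither gene passed adjustment over all entries (adjusted p 1 for both). In cumulus cells ZNF175 held 21.6, 25, 22.9 and 34.3 CPM on the ipsilateral and 24.8, 31.3, 20.4 and 22.1 CPM on the contralateral side, with overlap.

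Among the other granulosa members with the smallest p, ZNF792 held 6.95, 6.83, 12 and 10.6 CPM in ipsilateral and 5.22, 4.45, 4.58 and 8.73 CPM in contralateral libraries (0.65 ± 0.31). ZNF157, a KRAB gene on the human X chromosome, held 0.714, 0.663, 1.67 and 0.416 CPM in ipsilateral and 2.3, 1.8, 1.17 and 2.1 CPM in contralateral libraries (-1.09 ± 0.55). Both overlapped between the sides. ZNF484 had -0.28 ± 0.15 and ZNF891 -1.16 ± 0.66.

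**Figure D4:**
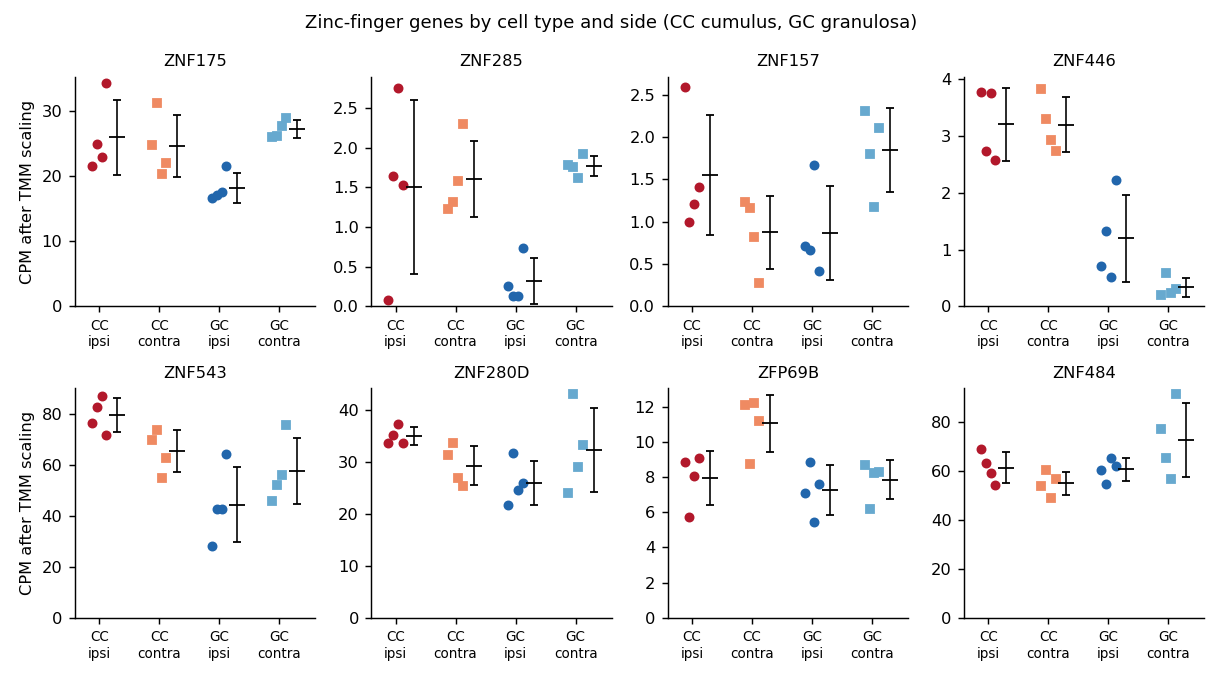
Levels of 8 members with the smallest p for the side or its difference between cell types. Points are libraries, in CPM after TMM scaling, with CC for cumulus and GC for granulosa, and bars give the mean ± SD of each group of 4. The ipsilateral granulosa libraries of ZNF175 and ZNF285 lie below all their contralateral granulosa libraries.

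The difference between the side effects of the cell types was tested directly in all 16 libraries. For 51 members tested, 0 were called by edgeR, limma-voom or DESeq2. The edgeR background was 0.0% of 18038 entries, and DESeq2 called 1 of 29213 entries with any count. A value above 0 means that ipsilateral minus contralateral was higher in cumulus than in granulosa cells, not that the cumulus effect was larger in size. At an unadjusted p under 0.05, 8 members passed, 7 with a value above 0 and 1 below, beside 3.05 and 4.48% of all entries. The median was 0.10, with 31 members above 0 and 20 below, where 48.0% of all entries were above 0. The lowest adjusted p was 0.653. Standard errors ran from 0.15 to 1.84 with a median of 0.41, so the precision was lower than for the side effects of either cell type alone.

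ZNF175 (0.66 ± 0.23), ZNF280D (0.58 ± 0.23), ZNF157 (1.91 ± 0.77), ZNF543 (0.67 ± 0.27) and ZNF285 (2.34 ± 0.97) had the smallest p with a value above 0. Their edgeR adjusted p-values lay between 0.653 for ZNF175 and 0.659 for ZNF285. The side effects in cumulus and granulosa cells were 0.06 and -0.60 for ZNF175 and -0.10 and -2.44 for ZNF285. They were 0.24 and -0.33 for ZNF280D, 0.81 and -1.09 for ZNF157 and 0.27 and -0.39 for ZNF543. ZNF446 lay in the opposite direction with -1.76 ± 0.64 (edgeR adjusted p 0.653), which is the test of its unlike folds on the 2 sides. None of these differences passed the threshold.

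The signs of the side effects can be set side by side, since the cumulus and granulosa comparisons share no library, though their pools may share animals. Of 48 members tested in both, 16 (33.3%) had the same sign, beside 49.5% of 15128 entries. In 22 members the value was above 0 in cumulus and below 0 in granulosa cells, in 10 the reverse, in 11 above 0 in both and in 5 below 0 in both. With no member called, this count is a description of signs only.

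**Figure D5:**
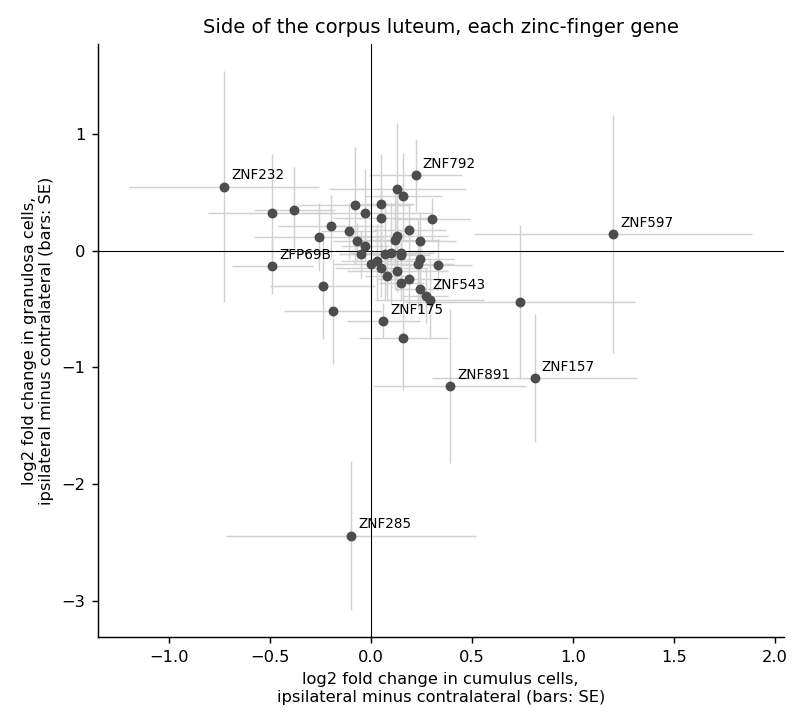
Side effects of 48 members in cumulus and granulosa cells. The axes give the log2 fold change (ipsilateral minus contralateral) in cumulus (x) and granulosa (y) cells, with standard errors as bars. No member passed the threshold in either cell type.

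Members were compared by their place in the genome, by RefSeq order without coordinates because no source used here gives the build of the counts. Of the 49 reported members that RefSeq holds, 28 have another gene named ZNF, ZSCAN, ZFP or ZKSCAN as an immediate protein-coding neighbour. Of those 28, 13 were called higher in cumulus cells and 1 in granulosa cells, and of the other 21 it was 8 and 3. Over all 51 members it was 23 and 4, beside 29.9% and 30.3% of all entries, and a difference between the neighbour classes was not tested. ZNF829, ZNF793 and ZNF585A are neighbours and differed from each other, with log2 fold changes of 0.05 ± 0.09, -0.48 ± 0.22 and 1.54 ± 0.25. ZNF567 and ZNF461 are neighbours and were both called higher in cumulus cells (1.37-fold and 1.94-fold). The neighbours ZNF157 and ZNF41 were not called, with log2 fold changes of -0.10 ± 0.39 and -0.52 ± 0.27.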

How the data were processed

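Per the labels' protocols, RNA was extracted with the miRNeasy kit and treated with DNase, amplified as cDNA (SMART-Seq HT), made into Nextera XT libraries and read as 75-base single ends on a NextSeq instrument. These kits do not mark strand. FastQC, Trimmomatic, STAR and DESeq2 are named without versions in the submitters' processing notes. Genome build, gene models and read counter were not given in the sources used here. Raw read counts per gene were deposited by the authors, 1 column per library, with 0 unnamed or summary rows.

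Tests used edgeR 4.0.16 in R 4.3.3 on the deposited counts, with filterByExpr (minimum count 10, minimum total 15) and TMM factors computed after that filter. The robust quasi-likelihood F-test was followed by Benjamini-Hochberg adjustment over all entries tested, with calls at an adjusted p under 0.05. The CPM values shown used TMM factors computed over all entries and all 16 libraries. Those factors were 1.01 to 1.067 in cumulus and 0.937 to 1.02 in granulosa libraries. Standard errors are the absolute log2 fold change over the root of F. Sides were compared in the 8 libraries of a cell type, and the other contrasts in all 16 with 4 group means. Alternatives included DESeq2 1.42.0 and limma-voom (limma 3.58.1). Replicates differed beyond sampling noise (chi-square per entry 12.9 to 78.7).

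The members and lists were chosen with earlier results of these data known. Named with values were called members of at least 1.5-fold between cell types, the 6 of smallest p in each side comparison and in the difference of the side effects, the 3 of highest and the 3 of lowest mean level, members whose call differed by DESeq2 or limma-voom or whose sign turned under an alternative, and called members of related lists. Members just inside and outside the level rule, in stable or equal groups and in neighbouring pairs were named after their values were seen. Domain classes come from general knowledge of the human genes and were put together after the values were seen. Sequences of the genes were not used here.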

Additional observations from a re-analysis of the deposited data

Results flagged for a closer look

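In 9 of 204 groups of 4 libraries (51 members in 4 groups), 1 library stood far from the others by Dixon's criterion, 7 times high and 2 times low. Chance flags about 1 in 20 such groups. In contralateral cumulus cells, ZNF232 was at 8.28 CPM in library 4, with the others at 2.04 to 2.66 CPM, and ZNF584 was at 23.9 CPM in library 1, with the others at 17.7 to 18 CPM. In ipsilateral cumulus cells, ZNF597 was at 0.201 CPM in library 3, below the others at 1.1 to 1.28 CPM, and ZNF469 was at 0.0612 CPM in library 4, a level under that of 3 counts, with 0 in the others.

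In contralateral granulosa cells, ZNF829 was at 26.5 CPM in library 2, with the others at 22.2 to 22.8 CPM. ZNF233 was at 4.63 CPM in library 3, below the others at 9 to 9.59 CPM. In library 4 of that group ZNF583 was at 10.9 CPM, with the others at 6.25 to 6.37 CPM, and ZNF488 was at 0.743 CPM, with 0 in the others. In ipsilateral granulosa cells, ZSCAN25 was at 3.74 CPM in library 4, with the others at 1.69 to 1.99 CPM. ZNF232, ZNF584 and ZNF583 were called between the cell types. ZNF232 and ZNF584 were called in every fit that left out 1 library, and ZNF583 was called without contralateral granulosa library 4 and lost its call in 7 of the 16 such fits.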

How the results depend on the processing

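Members called higher in cumulus cells numbered 23 in the main analysis, 12 with contralateral and 16 with ipsilateral libraries only, and 20 to 25 when each library was left out. Those higher in granulosa cells numbered 4, 2 with ipsilateral and 5 with contralateral libraries only, and 4 to 6 when each library was left out. The subsets hold fewer samples. DESeq2, limma-voom, RLE factors, library totals and no filter gave 22 to 28 higher in cumulus and 4 in granulosa cells. Of 27 called members, 24 passed in all 16 fits that left out 1 library and all 27 kept their direction. Of the 24 uncalled members, 15 were called in at least 1 alternative and 13 in at least 1 fit that left out a library. With limma-voom these were ZNF699 (0.65, adjusted p 0.0388, range over alternatives 0.0231 to 0.366) and ZNF233 (0.44, adjusted p 0.0435, range 0.0312 to 0.359). With libraries of 1 side only, the sign turned for 11 uncalled members, and the cause was not tested. With contralateral libraries these were ZNF213 (-0.33), ZNF280D (-0.11), ZNF175 (-0.11), ZNF285 (-0.11), ZNF260 (-0.10), ZNF829 (-0.03), ZFP90 (0.08) and ZNF407 (0.19), and with ipsilateral libraries ZNF484 (0.03), ZNF569 (0.09) and ZNF157 (0.86). For the sides and their difference 0 members were called in any alternative run. With library totals in place of TMM, the split of signs for the difference of the side effects went from 31 above and 20 below 0 to 27 and 24, and that for the side in granulosa cells from 22 and 27 to 25 and 24. The level rule gave 51 members, also with TMM scaling, 48 at 1 CPM in 8 libraries and 55 at 0.5 CPM in 4. No paired analysis was possible because the labels carry no replicate numbers and do not say which pools share animals. Members near 1 CPM rest on few counts, and 4 pools per group limit the side comparisons.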

Other observations

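Further zinc-finger genes appear in the table under NCBI LOC numbers that RefSeq pairs with a ZNF symbol. Of 7 tested, 3 were called higher in cumulus cells by edgeR and 0 in granulosa cells, with a median log2 fold change of 1.03, where 29.9% and 30.3% of all entries were called. ZNF77 (LOC789258) was 2.06-fold higher (1.04 ± 0.13, adjusted p 4.80e-06), ZNF875 (LOC787074) 2.12-fold (1.08 ± 0.23, adjusted p 0.000671) and ZNF619 (LOC786139) 2.27-fold (1.18 ± 0.35, adjusted p 0.0077). None of the 7 was called between sides or for the difference of the side effects.

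Of 38 genes of the KRAB co-repressor and heterochromatin machinery, 2 were found by name. FAM208A, which encodes the HUSH complex subunit TASOR, was 1.40-fold higher in granulosa cells (-0.49 ± 0.09, edgeR adjusted p 0.000283). MTA1, a subunit of the NuRD complex, was not called (0.79 ± 0.36, edgeR adjusted p 0.0694). Of 5 tested genes of other C2H2 families, ZBTB6 was called 1.41-fold higher in cumulus cells (0.49 ± 0.16, edgeR adjusted p 0.0131). REST, the neuronal gene repressor, had -0.02 ± 0.11, ZBTB20 0.95 ± 0.44, ZBTB34 0.03 ± 0.24 and LOC615792 (RESTA) 0.13 ± 0.10, and these were not called.

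The 10 members under the level rule were ZFP92, ZNF114, ZNF579, ZNF580, ZNF594, ZNF865, ZNF883, ZSCAN32, ZSCAN5B and ZSCAN9. ZNF580 and ZNF594 could be tested and were called higher in cumulus cells (1.69 ± 0.61, edgeR adjusted p 0.0255, and 4.16 ± 1.21, adjusted p 0.00877). ZNF594 had 0 counts in 7 of 8 granulosa libraries and 0.832 CPM in ipsilateral granulosa library 4, and 0.0911 to 1.81 CPM in cumulus libraries, so its size rests on few counts. ZNF580 reached 3.93 CPM in contralateral cumulus library 3 and at most 1.29 CPM in the other libraries. ZSCAN5B, ZSCAN9 and ZSCAN32 held 5, 9 and 2 counts over all 16 libraries.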
